A study of Mus musculus with 33 samples.

Results

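Binding sites of p53 restored in KI lymphomas were set against those of wild-type p53 activated in Arf lymphomas. The comparison took every peak list titled with OHT at 2 h in tumours 1 to 4 and every list titled with doxorubicin or minusNutlin at 3 h in tumours 5 to 7. This gave 10 of the 33 samples of the series, 4 lists with OHT and 6 with an activator, 26 samples having a list in all. All 10 are chromatin immunoprecipitations with a p53 antibody from C57/Bl6 lymph node B cells of Eµ-myc animals, sequenced to give a list of bound intervals (peaks). The OHT group carried the genotype Trp53(KI/delta), a knock-in over a deleted allele, and received 100 nM OHT for 2 h. The activated Arf group was Arf-/- Trp53+/+ and received 1 µM doxorubicin or 5 µM (-)-Nutlin for 3 h. Each Arf tumour supplied a doxorubicin list and a (-)-Nutlin list, which are not independent, so the tumour was the unit of the tests, 4 against 3. Genotype, agent and time differ together between the sets and cannot be told apart. Cells were pressed from the nodes without purification, so the lymphoma cells were not separated from other cells of the node.

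p53 is a transcription factor that binds DNA as a tetramer and switches on genes of cell cycle arrest, apoptosis and DNA repair. Its level is kept low by Mdm2, a ubiquitin ligase, and Arf inhibits Mdm2 when an oncogene such as Myc is active. Knock-in alleles of this kind encode p53 fused to a modified oestrogen receptor domain, which holds p53 inactive until OHT (4-hydroxytamoxifen) is given. Doxorubicin damages DNA and so stabilises p53, whereas (-)-Nutlin fills the pocket of Mdm2 that holds p53. The labels name the allele only as KI, so the fusion is background knowledge and not a fact they state.

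OHT lists were not all shorter than activated Arf lists, but the shortest lists were from KI tumours. With OHT, tumour 1 had 4102 peaks, tumour 2 had 3597, tumour 3 had 10084 and tumour 4 had 9738. With doxorubicin, tumours 5, 6 and 7 had 11346, 8250 and 9523 peaks. With (-)-Nutlin they had 10503, 10674 and 5617. KI tumours 1 and 2 lay below every Arf list and KI tumours 3 and 4 among them. The geometric mean of OHT lists was 0.679 of that of Arf tumours, a difference within the spread between tumours (exact permutation p = 0.343 over 4 against 3 tumours, two-sided, smallest possible 0.0286). Covered length was 3.53 ± 1.80 Mb (SD, n = 4) with OHT, 5.98 ± 0.64 Mb (SD, n = 3) with doxorubicin and 4.55 ± 1.05 Mb (SD, n = 3) with (-)-Nutlin. Between KI and Arf tumours the ratio of covered length was 0.615, with an exact permutation p of 0.286.

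Peak width is the one value besides position that the lists hold. Its median was 443, 456, 481 and 450.5 bp in OHT tumours 1 to 4. Doxorubicin lists had medians of 498, 517 and 552 bp, all above the OHT lists, and (-)-Nutlin lists 432, 417 and 525 bp. OHT lists were thus 32.5 bp narrower than Arf tumours on average, which was within the spread between tumours (exact permutation p = 0.171). Against doxorubicin alone the median width fell by 64.7 bp, and the exact permutation p was 0.0286, which is as low as 4 against 3 lists can give. Against (-)-Nutlin alone the difference was -0.375 bp (exact permutation p = 1.0), and without the doxorubicin list of tumour 6 it was -15.9 bp (exact permutation p = 0.714). Read depth is unknown here, so a short list and weak binding cannot be told apart.

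**Figure D1:**
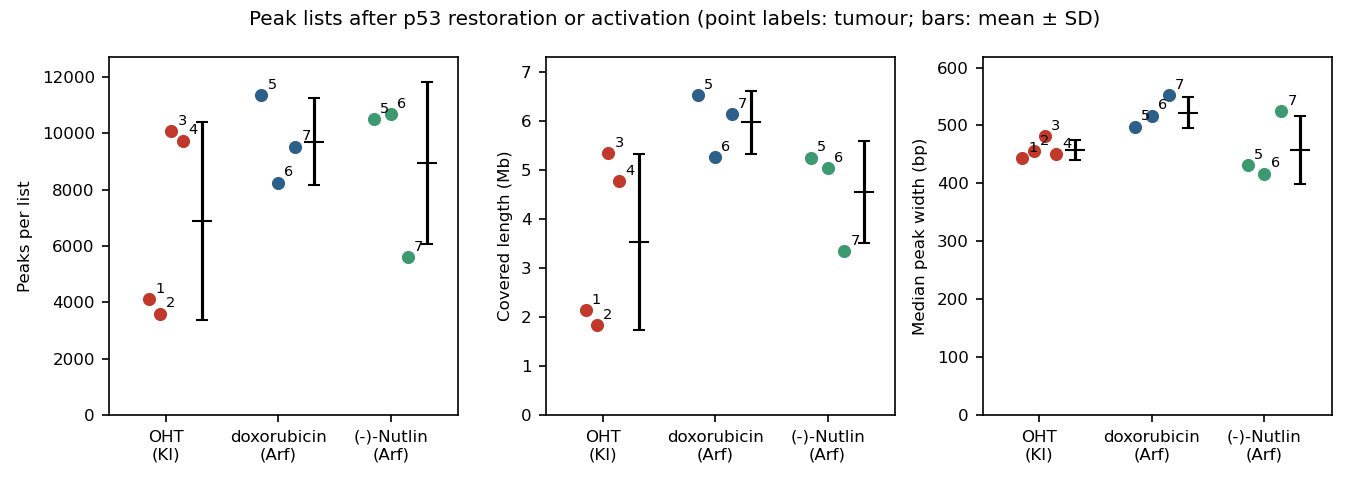
Number of peaks, covered length in Mb and median peak width in bp of each of the 10 lists, by agent, with the tumour number beside each point and the mean ± SD as a bar. OHT tumours 1 and 2, with 4102 and 3597 peaks, lie below every Arf list, and OHT tumours 3 and 4 lie among them.

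Most regions of each OHT list had a peak in some activated Arf list, but few regions were common to all lists. Peaks of the 10 lists, merged where they shared at least 1 bp, formed 18843 regions, of which 1092 (5.80% of all regions) had a peak in every list. Of the regions of each OHT list, 95.3% in tumour 1, 96.3% in tumour 2, 90.0% in tumour 3 and 89.9% in tumour 4 also had a peak in at least 1 activated Arf list. In the other direction, 78.8%, 53.1% and 73.4% of the regions of the doxorubicin lists of tumours 5, 6 and 7 had a peak in at least 1 OHT list, and 85.4%, 86.3% and 90.5% of those of the (-)-Nutlin lists. A share of this kind depends on how many lists, and how long, the other set holds.

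The doxorubicin list of tumour 6 stood apart from the other 9. It held 1751 regions found in no other of the 10 lists, 21.4% of its regions, against 0.197% to 6.51% in the other 9. Few of those 1751 regions had a peak before activation. The 16 unactivated lists of the series are EtOH in KI tumours and untreated, water, DMSO and (+)-Nutlin in Arf tumours. Each had a peak in at most 5 of the 1751 (0.286%), against 0.361% to 14.1% of all regions. Regions private to other lists were not looked up in this way, so the low counts cannot be called particular to this list. The main Jaccard difference, the counts of regions in whole sets, and the width tests are given with and without this list. Results by quintile of width, by pattern of KI tumours, among the widest peaks and by correlation of widths are given only with it.

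Midpoints of peaks were compared at the 991 regions where every list had exactly 1 peak. Between a KI and an Arf tumour the median distance of peak midpoints was 35.5 to 44.0 bp, and between KI tumours 32.5 to 44.0 bp. Between Arf tumours it was 30.0 to 34.8 bp. Peaks of one region overlap by construction, which keeps such offsets below the peak width.

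The widest of the shared sites, ranked by mean percentile of width within each list, lay at chr17:39979743-39985974 on build mm9, which holds for every position given. Its peaks measured 4100, 3253, 6069 and 4015 bp in OHT tumours 1 to 4 and 4029 to 6232 bp in Arf lists, and it was called in all 4 EtOH and all 12 unactivated Arf lists too. Whether it is a p53 site was not tested. The second lay at chr4:43986223-43990573, with 1373 to 2169 bp in OHT lists and 2087 to 3537 bp in Arf lists. OHT and Arf widths overlapped there, through the 2169 bp of OHT tumour 1. The third, at chr8:23543292-23546213, was called in 0 of 4 EtOH lists but in all 12 unactivated Arf lists. The last 2, at chr8:4610642-4613753 and chr11:6425981-6429051, were called in every EtOH and every unactivated Arf list.

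**Figure D2:**
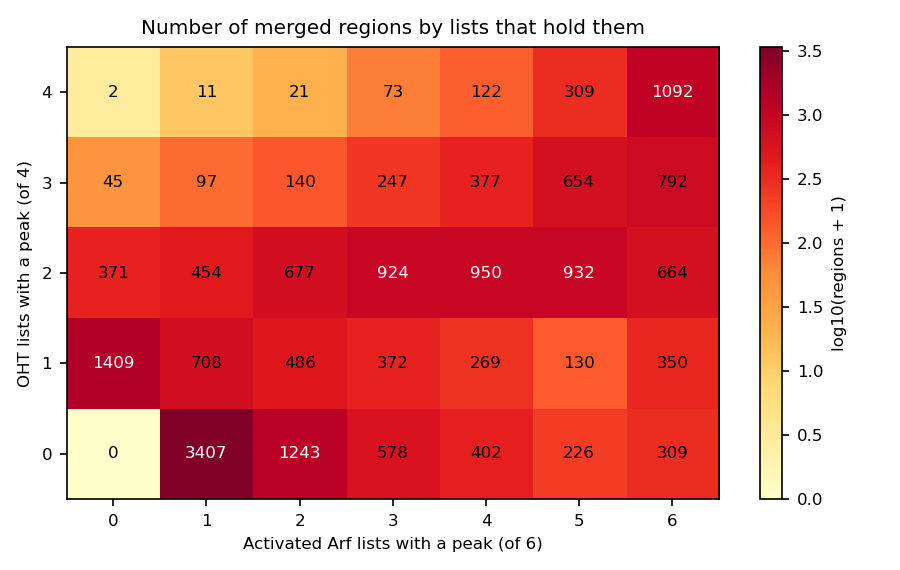
Number of merged regions by how many of the 4 OHT lists (vertical axis) and of the 6 activated Arf lists (horizontal axis) hold a peak there; colour is log10 of the number plus 1. The top right cell holds 1092 regions, the top left 2 and the bottom right 309.

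Regions bound in a whole set and absent from the other were few and lopsided. In every activated Arf list and in no OHT list there were 309 regions, 1.64% of all regions. In every OHT list and in no activated Arf list there were 2, or 0.0106%. Such counts depend on the length and number of lists. An OHT region had to lie in the short lists of tumours 1 and 2 (4102 and 3597 peaks) and in none of 6 Arf lists. Of the 1630 regions that all 4 OHT lists shared, 96.9%, 77.5% and 92.9% had a peak in the doxorubicin lists of tumours 5, 6 and 7, and 96.5%, 97.6% and 81.9% in the (-)-Nutlin lists. Of the 3207 regions that all 6 Arf lists shared, 66.3%, 53.8%, 77.5% and 65.0% had a peak in OHT tumours 1 to 4. Cutting every list to its 3597 widest peaks, the length of the shortest, gave 43 OHT regions against 89 Arf regions. This cut changes both the length of the lists and the width of the peaks kept. Without the doxorubicin list of tumour 6, 1300 regions were in all lists, 318 in the Arf lists alone and 2 in the OHT lists alone.

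By region, Fisher's exact test over 4 against 6 lists with Benjamini-Hochberg adjustment called 0 regions in either direction (0.00% of 18843), with a lowest adjusted p of 0.289. Unadjusted, 885 regions more often called in Arf lists and 58 more often called in OHT lists had p under 0.05. This test treats both lists of an Arf tumour as independent. With whole tumours permuted the exact test also called 0, with 1334 and 47 unadjusted. The lowest p a region could reach was 0.00476 by Fisher's test and 0.0286 by permutation of tumours. After adjustment over 18843 regions such floors leave little room for any call. The 0 calls therefore do not show that the sets were alike by region.

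The mean width percentiles of the 2 OHT regions in the OHT lists were 62.4 and 33.8. At both, the peaks were wider than the list median in OHT tumours 1 and 3 and narrower in tumours 2 and 4. At chr14:31409032-31410008 the peaks measured 739, 448, 839 and 363 bp in OHT tumours 1 to 4. At chr2:31306885-31307512 they measured 502, 369, 500 and 308 bp. Neither had a peak in any of the 16 unactivated lists. With 3 of 4 OHT lists required, 47 regions (0.249%) had no activated Arf peak, and none of the 47 had a peak in any unactivated list. The count of 2 became 27 without tumour 1, 16 without tumour 2, 7 without tumour 4 or tumour 5, 13 without tumour 6 and 4 without tumour 3 or tumour 7.

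Over the 309 regions of the activated Arf lists alone, the median width percentile was 79.9, 83.0 and 83.3 in the doxorubicin lists of tumours 5 to 7 and 74.0, 54.2 and 60.9 in the (-)-Nutlin lists. Over all 3207 regions that the 6 Arf lists shared it was 80.7, 61.9 and 78.1 with doxorubicin and 79.1, 77.5 and 65.8 with (-)-Nutlin. The 309 were thus above the 3207 in the doxorubicin lists of tumours 6 and 7 and below them in the other 4. The 10 named next were chosen as the widest of the 309. The first lay at chr8:25689584-25690984, with 1250, 1332 and 1370 bp under doxorubicin in tumours 5 to 7 and 1187, 919 and 1127 bp under (-)-Nutlin. It had a peak in 4 of 12 unactivated Arf lists and in 0 EtOH lists. The second lay at chr14:63789181-63790540, measured 747 to 1360 bp, and had a peak in 10 of 12 unactivated Arf lists. The third, at chr15:77293474-77294813, measured 631 to 1336 bp and had a peak in 7 of 12. A further region of that chromosome, chr15:92858572-92859962, reached 1391 bp under doxorubicin in tumour 7. The region at chr13:73898733-73900209 reached 1477 bp under doxorubicin in tumour 6 and had a peak in 8 of 12. The 5 next, on chromosomes 9, 13, 14 and 15, measured 608 to 1385 bp and had a peak in 4 to 7 of the 12 lists. Each of these 10 was missing from all 4 EtOH lists as well.

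Which Arf sites a KI tumour shared went with their width in opposite ways in different tumours. The 3207 regions of all 6 Arf lists were split into quintiles by their mean width percentile in those lists. OHT tumour 1 held 40.8% of the narrowest quintile and then 56.0%, 60.4%, 77.5% and 96.9% of the wider ones. OHT tumour 4 ran the other way, from 93.9% of the narrowest through 81.4%, 64.3% and 41.0% to 44.2% of the widest. OHT tumour 3 held 93.9% and 82.9% of the outermost quintiles and 58.7% of the next to widest, and tumour 2 between 46.1% and 65.3% throughout. Tumour 4 thus missed most of the widest Arf sites with 9738 peaks, whereas tumour 1 held nearly all of them with 4102.

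The regions of all 6 Arf lists were then sorted by which KI tumours held them, and the 5 commonest patterns, picked out after their counts were seen, are given. All 4 KI tumours held 1092 (34.1%), tumours 3 and 4 alone 380 (11.8%), tumours 2, 3 and 4 alone 349 (10.9%) and tumour 1 alone 317 (9.88%), while none held 309 (9.64%). Regions of tumour 1 alone were wide in Arf lists, with a median width percentile of 72.9 to 88.3, and the 380 regions of tumours 3 and 4 alone were at 20.0 to 62.3. In the doxorubicin list of tumour 6, the 2 classes were furthest apart, at 86.2 and 20.0.

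The same classes were then looked up in the unactivated lists, which had no part in defining them. Before activation, the 317 regions of tumour 1 alone were called at 76.3%, 39.4% and 14.5% in untreated Arf tumours 5, 6 and 7. For the 380 regions of tumours 3 and 4 alone the shares were 26.6%, 11.6% and 0.0%. The 309 regions absent from every OHT list were at 60.2%, 31.7% and 5.18%, and the 1092 regions of all 10 lists at 66.8%, 46.3% and 21.4%. At least 1 unactivated Arf list had a peak in 226 of the 309 (73.1%) and in 277 of the 317 (87.4%), against 77.1% of all 3207. For the 309, the share averaged 54.6% over the 4 unactivated lists of tumour 5, 14.6% in tumour 6 and 5.50% in tumour 7. In the EtOH lists of KI tumours, 0 of the 309 and 1 of the 317 had a peak in any of the 4 lists, against 42 of the 380 and 345 of the 1092. Over all 18843 regions, 21.3% had a peak in at least 1 unactivated Arf list and 4.64% in at least 1 EtOH list. The share of the 309 was thus above that of all regions and not above that of the 3207. The unactivated Arf lists come from the same tumours 5 to 7, where the 309 had to be called after activation. A share above that of all regions thus follows in part from that choice. The EtOH lists come from the tumours whose OHT lists defined the classes, so low counts there follow in part from the choice. The unactivated lists differ in kind: EtOH lists held 116 to 742 peaks and unactivated Arf lists 707 to 2696. Median widths were 68 to 105.5 bp in EtOH lists and 93 to 111 bp in Arf tumours 6 and 7, but 418 to 514 bp in Arf tumour 5, so shares are best compared between classes within 1 list.

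**Figure D3:**
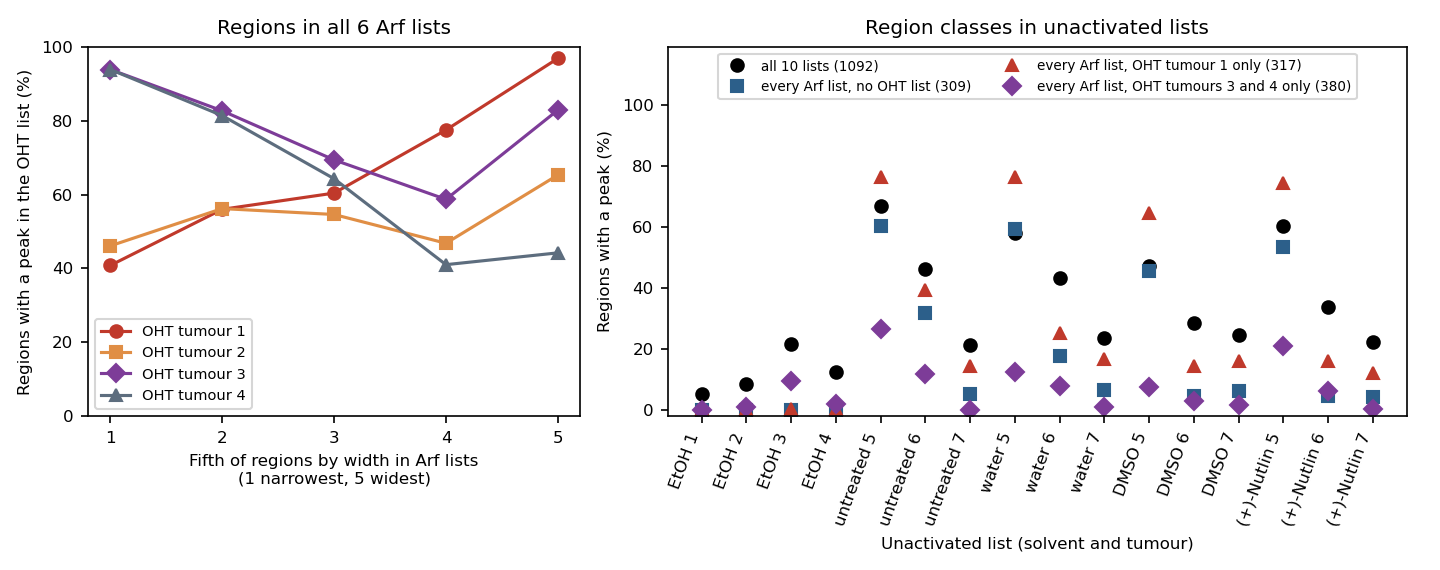
Left, share in % of the 3207 regions of all 6 Arf lists that had a peak in each OHT list, by quintile of width in the Arf lists; tumour 1 rises from 40.8% to 96.9% and tumour 4 falls from 93.9% to 44.2%. Right, share in % of the regions of 4 classes with a peak in each of the 16 unactivated lists, with the number of regions of each class in the key.

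Overlap of the lists did not separate restored from activated p53 beyond the spread between tumours. The Jaccard index, the shared part of the base pairs covered by a pair of lists, averaged 0.362 between tumours of one set and 0.317 between sets, a difference of 0.0446 (exact permutation p = 0.286, smallest possible 0.0286). Without the doxorubicin list of tumour 6 the difference was 0.0272. Arf tumours overlapped each other at 0.450 and KI tumours at 0.317. Among KI tumours, 3 and 4 had an index of 0.584 and 1 and 2 of 0.355, while 1 and 4 had 0.193. OHT tumours 3 and 4 overlapped (-)-Nutlin lists at 0.457 and 0.431 on average and doxorubicin lists at 0.332 and 0.288. The doxorubicin means include the list of tumour 6, at 0.182 and 0.141. In tumour 7 the (-)-Nutlin and doxorubicin lists were close, at 0.362 and 0.356 for OHT tumour 3 and 0.318 and 0.31 for OHT tumour 4. OHT tumours 1 and 2 differed in the same direction, with 0.306 and 0.262 for (-)-Nutlin and 0.256 and 0.206 for doxorubicin. OHT tumour 4 and the doxorubicin list of tumour 6 overlapped least, at 0.141.

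With lists cut to their widest peaks the sets parted more, short of the threshold. Such a cut changes the width of the peaks kept as well as the length of the lists. With every peak of the whole lists set to 200 bp around its midpoint, the difference was 0.0204 (exact permutation p = 0.629). Whole lists gave 0.0231 against (-)-Nutlin alone (exact permutation p = 0.657) and 0.0902 against doxorubicin alone (exact permutation p = 0.0571). Among the 1000 widest peaks of each list the index was 0.304 within sets and 0.195 between them, with an exact permutation p of 0.0571. Within sets it was 0.438 between Arf tumours and 0.237 between KI tumours. There, OHT tumour 1 resembled Arf lists (0.293) more than the other OHT lists (0.224), whereas tumours 2, 3 and 4 resembled OHT lists more, with 0.254, 0.268 and 0.201 against 0.174, 0.190 and 0.120. Of the 1000 widest peaks of OHT tumour 4, 97.8% lay under some peak of OHT tumour 3 and 95.7% under one of the (-)-Nutlin list of tumour 6. In reverse, 92.4% of the 1000 widest peaks of OHT tumour 3 and 71.2% of those of that (-)-Nutlin list lay under a peak of OHT tumour 4. With the doxorubicin list of tumour 6 both directions were lower. Of the 1000 widest peaks of OHT tumour 4, 58.7% lay under one of its peaks, and 29.5% in reverse.

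**Figure D4:**
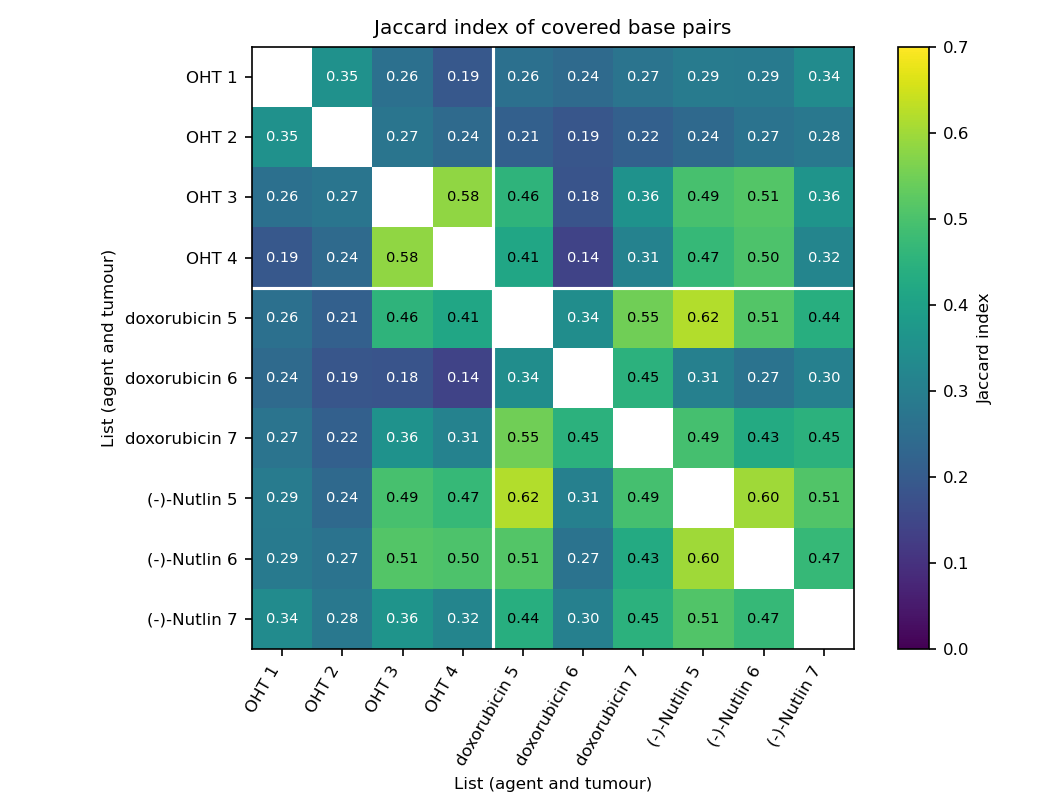
Jaccard index of covered base pairs for each pair of the 10 lists, white lines separating OHT from activated Arf lists. OHT tumours 3 and 4 (0.584) and the doxorubicin and (-)-Nutlin lists of tumour 5 (0.618) overlap most within their sets, and OHT tumour 4 and the doxorubicin list of tumour 6 least (0.141).

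Where all 10 lists had a peak, some peaks differed in width between the sets. Widths of the 1092 regions were compared as log2 bp minus the median of the list over these regions, with 1 value per tumour, by limma with Benjamini-Hochberg adjustment. With OHT, 53 regions (4.85%) were narrower and 5 (0.458%) were wider. Without centring on the list the median of all regions moved from 0.026 to -0.111, and the calls became 147 narrower and 1 wider. The narrower group had median widths of 821, 586, 698 and 415 bp in OHT tumours 1 to 4. In the doxorubicin lists it had 1626, 1594 and 1794 bp, and in the (-)-Nutlin lists 1369, 1087 and 1327 bp, a separation that follows from how these regions were called.

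The largest decrease was at chr7:87098506-87101451. There the peaks measured 743, 590, 542 and 356 bp in OHT tumours 1 to 4 and 1488 to 2946 bp in the 6 Arf lists. The difference was -1.79 ± 0.27 (SE) on the log2 scale after centring, with a limma adjusted p of 0.0335. At chr15:96782194-96784453 the peaks measured 411 to 761 bp with OHT and 1317 to 2260 bp in Arf lists, a difference of -1.48 ± 0.27 (SE). The other 3 of the 5 largest, at chr17:27523511-27526047, chr7:35757998-35760276 and chr17:79538770-79540498, had differences of -1.39, -1.38 and -1.33. At all 5, every OHT peak was narrower than every Arf peak.

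The 5 wider regions changed by less. At chr8:74120363-74121898 the peaks measured 1168, 1070, 1047 and 1238 bp in OHT tumours 1 to 4 and 316 to 1125 bp in Arf lists. The sets overlapped there through the doxorubicin list of tumour 5, and the log2 difference was 1.03 ± 0.27 (SE, limma adjusted p = 0.0493). At chr14:70230504-70231571 the difference was 0.73, with 687 to 994 bp against 441 to 697 bp. At chr4:140239509-140240901 it was 0.72, at chr5:143670606-143671540 it was 0.71 and at chr5:106077530-106078492 it was 0.68. The sets overlapped at the first 4 of these regions and not at the last, where OHT peaks measured 613 to 963 bp and Arf peaks 419 to 595 bp.

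In the unactivated lists, the narrower regions were called often in Arf tumours and seldom in KI tumours. Of the 53, 52 had a peak in untreated tumour 5, 50 in untreated tumour 6 and 45 in untreated tumour 7, or 84.9% to 98.1%, against 21.4% to 66.8% of all 1092. In EtOH lists, 1 of the 53 had a peak in tumour 1 and 0 in tumours 2, 3 and 4, where 5.13%, 8.33%, 21.5% and 12.4% of all 1092 did. These 53 were chosen for being wider in the activated lists of the same Arf tumours, so the shares are a description. Of the 5 widest shared regions, 3 were called in all 4 EtOH lists, but these were also wide with OHT, at 1178 to 6069 bp. They are thus no match for the 53, and whether width accounts for the EtOH counts was not tested. The width calls rest on few tumours: both counts became 0 without the doxorubicin list of tumour 6 and without any of tumours 2, 3, 5, 6 or 7, whereas without tumour 1 there were 191 narrower and 22 wider. On percentiles of width in place of log2 bp there were 0 calls, with 58 wider and 24 narrower at an unadjusted limma p under 0.05.

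Among KI tumours, width at shared regions set tumour 4 apart. Across the 1092 regions, which are not independent replicates, Pearson's r of centred log2 widths between OHT tumour 1 and the 6 Arf lists was 0.658 to 0.783. For tumour 4 it was -0.094 to 0.290, and for tumours 2 and 3 it was 0.423 to 0.631. Between OHT tumours 1 and 4 it was 0.120, and between tumours 3 and 4 it was 0.603. Arf lists had 0.733 to 0.876 with each other. Which program set the widths is not known, and the tumour 4 list was not a short one, with 9738 peaks.

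The spread of peaks over chromosomes was compared as the share of each list's peaks. No chromosome passed the test over tumours, which had little room to call any. Chromosome 5 held 10.1%, 5.92%, 8.58% and 7.92% of the peaks in OHT tumours 1 to 4 and 5.83% to 6.61% in the 6 Arf lists. Tumours 1, 3 and 4 were above every Arf list and tumour 2 within their range. The EtOH lists of the same tumours had 12.9%, 5.91%, 16.5% and 13.9% of the peaks on chromosome 5 in tumours 1 to 4, which rest on 15, 11, 122 and 51 peaks. In the 12 unactivated Arf lists the share was 6.38% to 7.82%. Chromosome 13 held 1.73%, 3.42%, 2.89% and 2.84% of the peaks in OHT tumours 1 to 4 and 3.81% to 4.29% in Arf lists. It held 14 of the 1092 regions of all lists (1.28%), which need a peak in every OHT list, against 3.86% of all regions, and 19 of the 309 regions of the Arf lists alone (6.15%). Chromosome X held 0.806% to 1.18% with OHT and 1.26% to 1.80% in Arf lists.

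Of the 20 chromosomes, 0 passed the exact permutation test over tumours after Benjamini-Hochberg adjustment (0.00%), with a lowest adjusted p of 0.229. The smallest possible p of that test was 0.0286, so 1 chromosome alone could not pass after adjustment. The count of 0 therefore does not show that the shares were alike. Before adjustment, 2 chromosomes, 6 and 12, had an exact permutation p under 0.05, both at 0.0286. The exact permutation p was 0.0571 for chromosomes 13 and X and 0.171 for chromosome 5. Shares did not overlap between the 10 lists on 4 chromosomes (20.0%), which were 2, 6, 13 and X. With lists as units 4 chromosomes passed, at an adjusted exact permutation p of 0.0238, but lists of one tumour are not independent. Within chromosome 13, the stretch from 40 to 70 Mb held 14.4% of the chromosome's peaks in OHT tumour 3 (42 of 291). In OHT tumour 4 it held 33.6% (93 of 277), in tumours 1 and 2 22.5% and 27.6%, and in Arf lists 30.5% to 34.0%. This stretch and chromosomes 5, 13 and X were picked out after their values were seen, and the number of copies of each chromosome in these tumours was not tested.

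**Figure D5:**
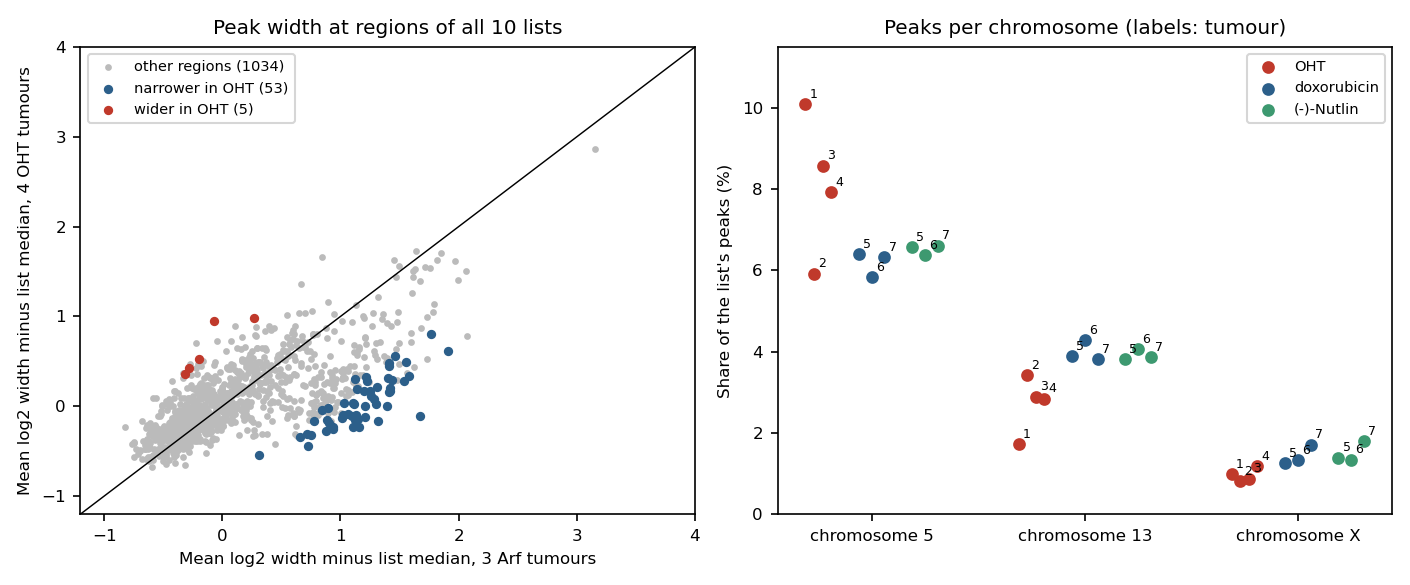
Left, log2 peak width minus the list median at the 1092 shared regions, mean of 3 Arf tumours against mean of 4 OHT tumours, with the line of equality; 53 regions narrower and 5 wider with OHT (limma adjusted p under 0.05) are coloured. Right, share in % of each list's peaks on chromosomes 5, 13 and X, by agent, with tumour numbers; OHT tumour 1 is highest on chromosome 5 (10.1%) and lowest on chromosome 13 (1.73%).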

How the data were processed

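Alignment tools named by the submitters' processing notes are BWA 0.6.2 and SAMtools, and the build is mm9. Which program called peaks, at what threshold and against which of 7 inputs is not given in the sources used here. Each deposited list covers 1 library and gives positions alone, in bp, without any score or height. They were used whole, with no region removed as repeat, and coordinates are printed counted from 1. The gene table at hand was of build GRCm38, so genes, sequences and motifs were not analysed here.

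Tumour numbers in the titles mark the tumour, which pairs both Arf lists of a tumour but no KI list with an Arf list. Lists of an Arf tumour were averaged, and 4 against 3 tumours were compared by exact permutation over all 35 assignments. Widths at shared regions were fitted with limma 3.58.1 in R 4.3.3, and other steps ran in Python 3.11.15. Code was tested on simulated lists and widths. Named regions were the 5 widest by percentile in all lists, up to 10 in each set alone, and up to 5 width changes in each direction. Members, classes and lists were chosen with earlier results of these data known. Alternatives covered list length, peak extent, merging, single activators and leaving out each tumour. Those chosen after seeing the data were cuts to 500, 1000 or 2000 peaks, peaks covering 50% of a region, leaving out the doxorubicin list of tumour 6, leaving out chromosomes 5 and 13, and a merge gap of 200 bp for the shares before activation.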

Additional observations from a re-analysis of the deposited data

Results flagged for a closer look

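In OHT lists, tumour 2 lay far from the other 3 in its share of peaks on chromosome 3 (7.40%) and on chromosome 4 (5.89%), by Dixon's test at the 95% level over 4 samples. The other OHT lists held 5.00% to 5.21% on chromosome 3 and 6.61% to 6.73% on chromosome 4. Chance flags about 1 in 20 such groups, and 24 were tested.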

How the results depend on the processing

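The number of peaks, covered length and median width kept the sign of their difference in every alternative run, though median width differed by -0.375 bp against (-)-Nutlin alone and by -15.9 bp without the doxorubicin list of tumour 6. Leaving out each tumour gave log2 differences of -0.79 to -0.30 in number and -0.95 to -0.44 in length, and -45.1 to -8.38 bp in width. The Jaccard difference ran from 0.0125 to 0.0789 over tumours left out. Regions of OHT lists alone (2) became 43 with lists cut to the shortest, 5 among peaks of at least the median width, 155 with 1 list of each set allowed to differ, 1 with peaks covering 50% of the region, 16 against doxorubicin alone and 14 against (-)-Nutlin alone, and 4 to 27 with a tumour left out. Regions of Arf lists alone (309) became 89 in cut lists, 1015 with 1 list allowed to differ, and 1206 against doxorubicin alone, and 314 to 626 with a tumour left out. Without tumour 1 there were 626 and without tumour 6 there were 464. Regions of all lists (1092) became 244 in cut lists, 267 among the wider peaks and 370 with peaks covering 50% of the region, and 1093 to 1441 with a tumour left out. Shared regions wider and narrower with OHT (5 and 53) became 1 and 147 without centring, 0 and 0 as percentiles, 16 and 106 with lists as units, 1 and 1 with (-)-Nutlin alone, and 0 and 0 without the doxorubicin list of tumour 6. In regions of at least 3 OHT lists 95 were narrower. With a tumour left out they were 0 to 22 and 0 to 191. With the tumour as a replicate block they were 17 and 107. The correlation within tumours was estimated there at -0.0165, from Arf tumours alone, since each KI tumour had 1 list. That fit was thus close to lists as units and does not correct for the 2 lists of an Arf tumour. Permuting whole tumours changed no call on numbers, lengths, widths per list or Fisher's test. Chromosomes that passed numbered 4 with lists as units and 0 otherwise. With a tumour left out the smallest possible exact permutation p was 0.05 or 0.0667, so no chromosome could pass there. Median width against doxorubicin alone differed by -64.7 bp (exact permutation p = 0.0286). The cause was not tested in any of these. An overlap of at least 50% of the shorter of peak and region was not run, since a peak always lies within its region. Read depth was not given, so sites missed for depth cannot be told from unbound ones.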
